A study of Homo sapiens with 6 samples.

Results

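WNT ligands, their Frizzled and LRP receptors, the secreted antagonists and the first intracellular steps of the pathway were examined in a neuroblastoma line with an inducible histone demethylase. The genes were taken by symbol: every probe set annotated to a single symbol of the WNT, FZD, DKK, SFRP, LGR4 to LGR6, LRP5 and LRP6, AXIN, NKD, TCF and LEF families, or to RNF43, ZNRF3, NOTUM, WIF1, CTNNB1, PORCN, WLS or the Kremens, with the brightest probe set standing for a gene. This gave 37 genes of 14884 named genes on the array, each with 1 probe set. Another 24 of the 61 symbols looked for had no probe set annotated to that symbol alone. They were all WNT ligands but WNT2, together with PORCN, CTNNB1, TCF7, TCF7L1, TCF7L2 and SFRP3. SFRP3 is an older symbol of FRZB, which the array annotation names and which is described with the extracellular modulators, and the others are not analysed.

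BE(2)-C is a human MYCN-amplified neuroblastoma line, and the BE(2)-C_tetoff_KDM4C derivative carries KDM4C, a demethylase of histone H3 lysine 9, under a tet-off promoter that doxycycline silences. The 2 groups were cells kept 6 days without doxycycline (construct on, 3 arrays) and cells kept 6 days with doxycycline (construct off, 3 arrays), all in medium with dialyzed serum. The labels do not say whether the derivative is 1 clone or a pool, and cells lacking the construct are not analysed here, so KDM4C induction and doxycycline withdrawal cannot be told apart. KDM4C was at 8.97, 9.08 and 9.02 without doxycycline, against 7.71, 7.77 and 7.80 with it (log2 expression values), and the arrays correlated at 0.990 to 0.993 over all probe sets, within and between groups. Genes of noradrenergic neuroblastoma (PHOX2A, HAND2, GATA2, GATA3, ISL1, TH, DBH, DDC, CHGA and CHGB, 10 measured of 12 listed) averaged 8.80 to 11.1 over the 6 arrays, and 0 of them passed the test described below. The groups did not overlap in 5 of the 10, 50%, against 24.6% of named genes. Of these, TH, DBH and GATA2 had log2 differences (no doxycycline minus doxycycline) of 0.34, 0.28 and 0.20, and CHGA and CHGB of -0.40 and -0.34. Of 23 measured entries in lists of mesenchymal, neural crest and Schwann, epithelial, endothelial, and blood and immune markers, 0 passed. The endothelial genes VWF, KDR and PECAM1 averaged 2.88 to 3.08, below the median probe set of 3.94. The other lists held both dim and brighter genes. Averages ran from 3.42 to 9.02 (SNAI2) in the mesenchymal list and from 3.10 to 6.48 (SOX9) in the neural crest and Schwann list. In the epithelial list they ran from 3.14 to 7.49 (KRT18), and in the blood and immune list from 3.35 to 5.75 (CD68).

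WNT proteins are lipid-modified secreted ligands that bring a Frizzled receptor and the co-receptor LRP5 or LRP6 together. This stops a complex built on AXIN and APC from destroying beta-catenin, which then enters the nucleus and activates genes with TCF and LEF factors. Several of those genes encode brakes on the pathway, among them the antagonist DKK1, AXIN2, NKD1, NOTUM and the ubiquitin ligases RNF43 and ZNRF3, which remove Frizzleds from the cell surface. WNT signals act early in the neural crest, the embryonic source of neuroblastoma.

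Of the 37 WNT genes 1 passed the test, and that gene, DKK1, rose 1.78-fold without doxycycline. The test was limma's moderated test on all 53617 probe sets, with Benjamini-Hochberg adjustment over all of them and a threshold of 0.05. By the same rule 0.341% of all probe sets passed, 0.248% as higher and 0.0933% as lower. Among the 14884 named genes, read from the brightest probe set, 64 passed as higher and 20 as lower. No WNT gene passed as lower. The other 36 genes lay between -0.21 and 0.29 (log2 difference, no doxycycline minus doxycycline), and for 33 of them the 95% confidence interval of the difference stayed within 0.5 in either direction. The intervals of FZD5, SFRP5 and LEF1 reached past that bound on the upper side, to 0.52, 0.54 and 0.51. Of the 33 genes within it, 16 lay below the median probe set. A change of a weakly expressed transcript could be missed there even with a narrow interval. At an unadjusted p below 0.05, 4 WNT genes were higher and 0 lower, where 12.4% of all probe sets had such a p, 6.7% as higher and 5.73% as lower. The array measures RNA of whole cultures, so fewer cells expressing a gene and less RNA per cell cannot be told apart.

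**Figure D1:**
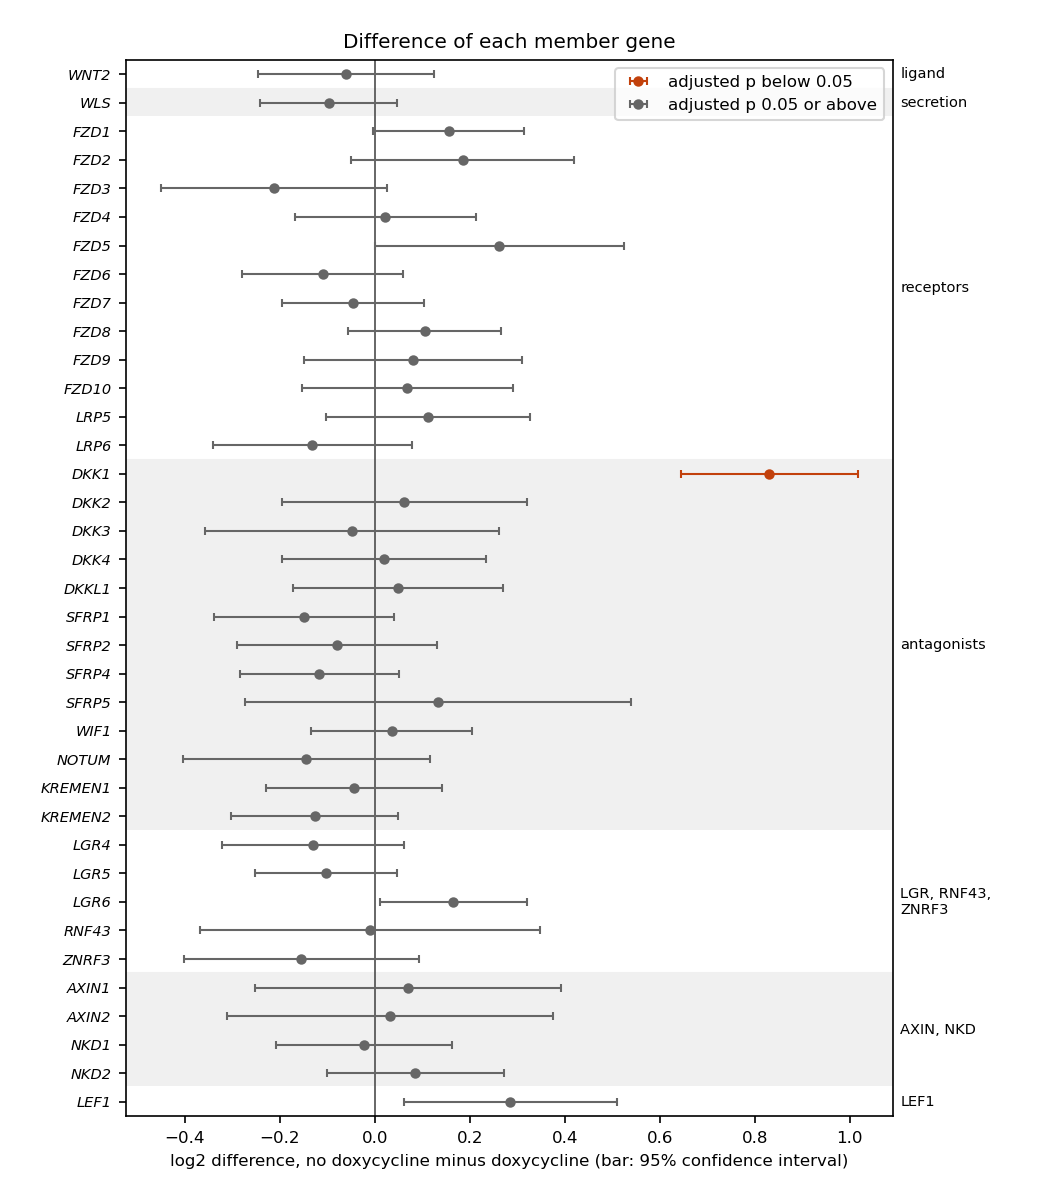
Log2 difference (no doxycycline minus doxycycline, horizontal axis) of each of the 37 WNT genes, ordered by role from top to bottom, with points for limma's estimate from 3 against 3 arrays and bars for the 95% confidence interval. DKK1, in orange at 0.83 with an interval of 0.64 to 1.02, stands to the right of the other 36 genes, which lie between -0.21 and 0.29.

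DKK1 encodes Dickkopf-1, a secreted protein that binds LRP5 and LRP6 and keeps WNT ligands from engaging them. It was at 10.87, 10.98 and 10.87 in the 3 samples without doxycycline, against 10.19, 10.00 and 10.04 in the 3 samples with doxycycline. The groups do not overlap, and the gap of 0.68 between the lowest value without and the highest value with doxycycline is wider than the range of either group (0.11 without and 0.19 with doxycycline). The means were 10.91 ± 0.06 without and 10.08 ± 0.10 with doxycycline (SD, n = 3 each), a log2 difference of 0.83 (SE 0.08, limma adjusted p = 0.0217), with a 95% confidence interval of 1.56- to 2.02-fold. Among the 133 probe sets that passed as higher, DKK1 ranked 54th by the size of the difference and 36th by p. The two-sided exact permutation test of DKK1 alone gave p = 0.1, the smallest that 3 against 3 arrays allow. Leaving out any 1 of the 6 arrays kept the difference between 0.79 and 0.89 but ended the call (limma adjusted p = 0.0716 to 0.121), in fits that called 0 to 15 probe sets of all.

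The promoter of DKK1 is shown because DKK1 was the one WNT gene past the threshold. It runs from 250 bases before to 50 after the RefSeq start of the gene, chr10:52314031-52314330 on the plus strand of GRCh38.p14, and has 63.7% G and C. Capitals mark matches to the motifs searched:
DKK1: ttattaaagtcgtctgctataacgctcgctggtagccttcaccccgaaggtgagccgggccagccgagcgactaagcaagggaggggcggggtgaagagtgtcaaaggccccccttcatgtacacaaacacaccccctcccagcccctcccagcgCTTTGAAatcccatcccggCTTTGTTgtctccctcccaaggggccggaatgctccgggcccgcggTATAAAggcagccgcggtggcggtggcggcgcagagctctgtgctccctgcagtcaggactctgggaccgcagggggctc

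A TATAAA box lies at -30 to -25 from the start. The 2 other matches, CTTTGAA at -95 to -89 and CTTTGTT at -76 to -70, are forms of the TCF and LEF motif. That motif was searched on both strands as CTTTG followed by AA, AT, TA or TT, a set widened after CTTTGAT alone had given no match in DKK1. Of 35116 RefSeq promoters of this length, 13.8% held one of the forms and 11.5% held TATAAA on either strand. Promoters were at hand for 20 of the 37 WNT genes (24 promoters), and DKK1 was the one gene of the 20 with a TCF and LEF match, while TATAAA occurred in DKK1 and FZD8. The AP-1 motif TGANTCA, found in 7.71% of all promoters, matched RNF43 alone among the 20 genes, at -47 to -41, and the ATF4 and CHOP motif TGATGNAA, found in 3.62%, matched none. The arrays measured no factor's binding at these sites.

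**Figure D2:**
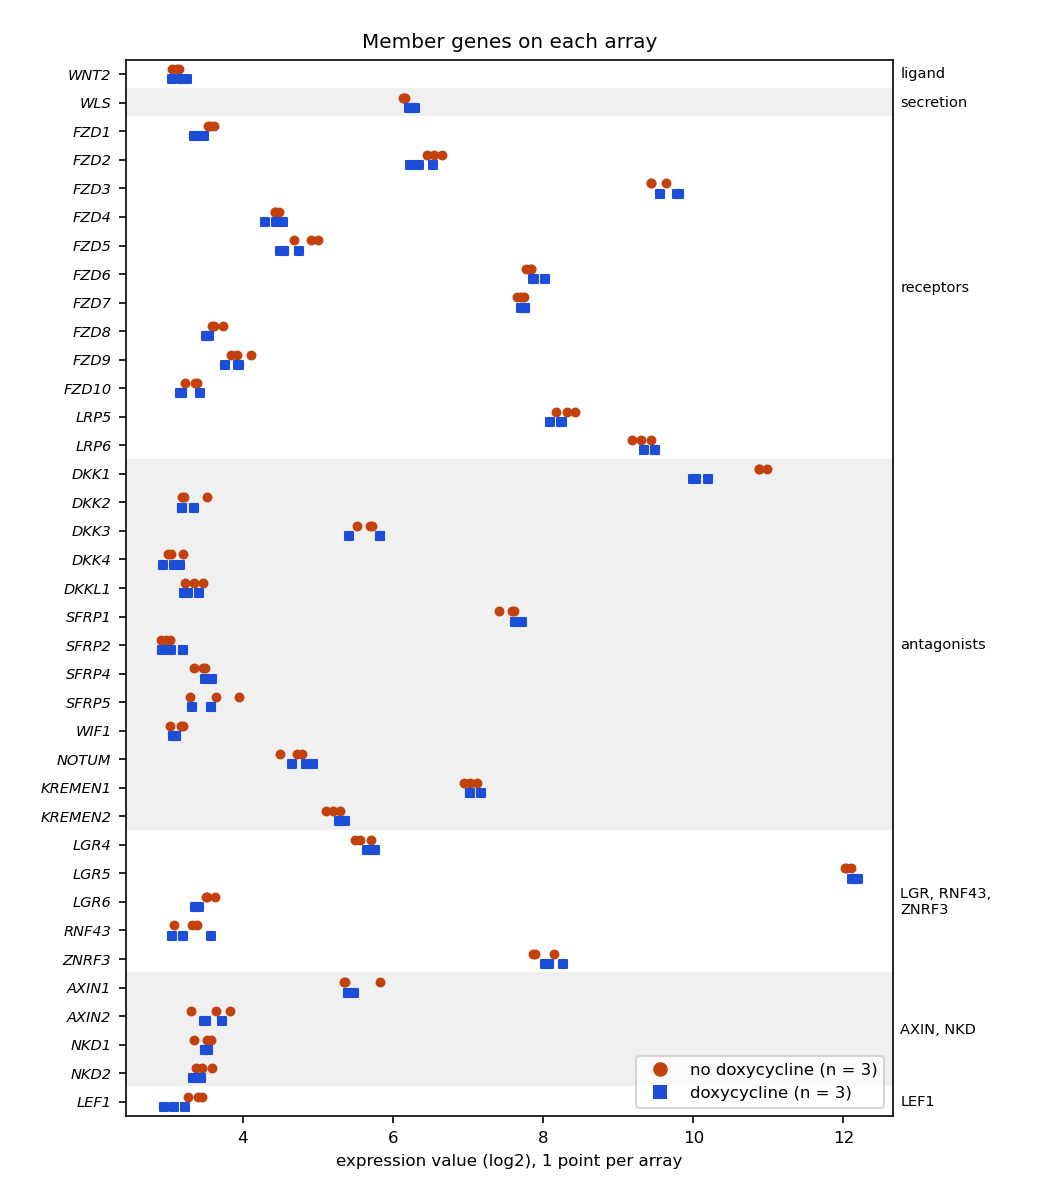
Log2 expression value of each WNT gene on each of the 6 arrays (horizontal axis), with orange circles for the 3 arrays without doxycycline and blue squares for the 3 with doxycycline. The DKK1 circles at 10.87 to 10.98 lie clear of its squares at 10.00 to 10.19, while in 28 of the 37 genes the groups overlap.

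None of the other 4 Dickkopf genes passed. DKK3, a divergent family member that does not act on LRP6 in the way DKK1 does, was at 5.69, 5.72 and 5.52 without doxycycline, against 5.82, 5.42 and 5.83 with it. DKK2, DKK4 and DKKL1 had log2 differences of 0.06, 0.02 and 0.05. Their probe sets lay below the median probe set in both groups, so a change of a weakly expressed transcript could be missed there. KREMEN1 and KREMEN2 encode membrane receptors that bind Dickkopf proteins and take LRP6 off the surface. KREMEN2 was at 5.10, 5.20 and 5.30 without doxycycline, against 5.33, 5.37 and 5.29 with it, a log2 difference of -0.13 (limma adjusted p = 0.549), and KREMEN1 was at -0.04. The values of KREMEN2 overlapped in 1 sample of each group.

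Secreted Frizzled-related proteins bind WNT ligands directly and so compete with the receptors. SFRP1 was at 7.61, 7.59 and 7.41 without doxycycline, against 7.72, 7.71 and 7.62 with it. All 3 values without doxycycline lay below the 3 with it, by as little as 0.01 between neighbours, and the log2 difference of -0.15 did not pass (SE 0.08, limma adjusted p = 0.512). SFRP4 was at -0.12 (limma adjusted p = 0.561), SFRP2 at -0.08 and SFRP5 at 0.13. SFRP5 spread most of the 37 genes, from 3.30 to 3.95 in the samples without doxycycline. WIF1, a secreted inhibitor that binds WNT ligands, was at 0.04. NOTUM, an enzyme that strips the lipid from WNT ligands, was at 4.72, 4.79 and 4.50 without doxycycline, against 4.66, 4.84 and 4.93 with it, a difference of -0.14 within the spread of the samples. Of the 13 measured antagonists and Kremens, DKK1 rose, 0 fell and 12 did not pass. Below the median probe set lay 7 of the 13, among them SFRP2, SFRP4, SFRP5 and WIF1. A change of a weakly expressed transcript could be missed there.

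On the side of the ligands 2 genes could be read. WNT2 was at 3.15, 3.05 and 3.12 without doxycycline, against 3.05, 3.26 and 3.19 with it, below the median probe set on every array. WLS, the carrier that takes lipid-modified WNT proteins to the cell surface, was at 6.15, 6.13 and 6.16 without doxycycline, against 6.24, 6.29 and 6.21 with it. The WLS groups do not overlap, but the log2 difference was small at -0.10 (95% confidence interval -0.24 to 0.05, limma adjusted p = 0.574).

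Among the receptors, all 10 Frizzleds, LRP5 and LRP6 were measured and 0 passed. The 12 log2 differences ranged from -0.21 to 0.26, 8 positive and 4 negative, with a median of 0.08. The greatest in each direction were those of FZD5 and FZD3. FZD5 was at 4.687, 5.002 and 4.905 without doxycycline, against 4.549, 4.754 and 4.503 with it, a log2 difference of 0.26 (SE 0.11, limma adjusted p = 0.401). The lowest FZD5 value without doxycycline lay below the highest with it. FZD3, which is known for its part in axon growth and guidance in the developing nervous system, was at 9.44, 9.44 and 9.64 without doxycycline, against 9.78, 9.82 and 9.55 with it, a difference of -0.21 (SE 0.10, limma adjusted p = 0.457). Replicate 3 of either group fell within the range of the other, so these groups overlap as well.

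FZD1, FZD2, FZD8 and FZD9 had log2 differences of 0.16, 0.18, 0.11 and 0.08, and FZD6 one of -0.11, with limma adjusted p between 0.410 and 0.789. In FZD1 and FZD8 every sample without doxycycline was above every sample with it, and in FZD6 every one was below. FZD1, FZD8, FZD9 and FZD10 lay under the median probe set. FZD4, a receptor that also answers the ligand norrin, FZD7 and FZD10 were at 0.02, -0.05 and 0.07. The co-receptors stood on opposite sides of 0, LRP5 at 0.11 and LRP6 at -0.13 (limma adjusted p = 0.672 and 0.601). LRP6, the partner that DKK1 blocks, was at 9.43, 9.19 and 9.31 without doxycycline, against 9.48, 9.34 and 9.49 with it, with overlapping groups.

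LGR4, LGR5 and LGR6 are receptors for R-spondins, secreted proteins that strengthen WNT signals by drawing RNF43 and ZNRF3 away from the Frizzleds. LGR5 was bright on all 6 arrays, at 12.03, 12.03 and 12.10 without doxycycline, against 12.19, 12.12 and 12.17 with it. The groups do not overlap, yet the difference was only -0.10 (95% confidence interval -0.25 to 0.05, limma adjusted p = 0.565). LGR6 was at 3.52, 3.52 and 3.63 without doxycycline, against 3.42, 3.37 and 3.39 with it (0.17, limma adjusted p = 0.376), below the median probe set. LGR4 was at -0.13. ZNRF3 was at 7.89, 7.87 and 8.14 without doxycycline, against 8.03, 8.08 and 8.26 with it (-0.15, SE 0.10, limma adjusted p = 0.605), and RNF43 at -0.01. Of these 5 genes 0 passed, and 4 had a negative difference.

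Inside the cell, AXIN1 and AXIN2 are scaffolds of the complex that destroys beta-catenin, and NKD1 and NKD2 hold back the pathway by binding Dishevelled. AXIN1 was at 5.35, 5.83 and 5.37 without doxycycline, against 5.40, 5.48 and 5.45 with it. A single sample, replicate 2 without doxycycline, stood above the rest, and the difference was 0.07 with all arrays and -0.09 without that one. AXIN2, a widely used readout of beta-catenin activity, was at 3.32, 3.84 and 3.65 without doxycycline, against 3.51, 3.48 and 3.72 with it. All 6 values lay below the median probe set, and the log2 difference of 0.03 had an interval of -0.31 to 0.38, which also turned negative without replicate 2 of either group (-0.09 and -0.01). NKD1 and NKD2 were at -0.02 and 0.09, both dim. LEF1, which takes beta-catenin to its target genes, was at 3.41, 3.46 and 3.27 without doxycycline, against 3.23, 3.09 and 2.96 with it, so the groups do not overlap. Its log2 difference of 0.29 (SE 0.09) was the largest after that of DKK1 and did not pass (limma adjusted p = 0.291), and all 6 values lay below the median probe set.

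Besides DKK1, 7 of the measured genes are known as direct targets of beta-catenin: AXIN2, NKD1, LGR5, RNF43, ZNRF3, NOTUM and LEF1. None of the 7 passed limma's test, 2 had positive and 5 negative differences, and they ranged from -0.15 (ZNRF3) to 0.29 (LEF1). At an unadjusted p below 0.05 LEF1 was the one gene of the 7. AXIN2, NKD1, RNF43 and LEF1, 4 of the 7, lay below the median probe set, so the signs rest in part on dim values.

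Over all 37 genes, 19 differences were positive and 18 negative, with a median of 0.02, and over all probe sets the median was 0.01. The groups did not overlap in 9 of the 37 genes, 5 higher and 4 lower, where 19.3% of all probe sets had groups that did not overlap, 10.2% higher and 9.09% lower. Among the 14884 named genes, read like the WNT genes from the brightest probe set, the share was 24.6%, and it was 24.3% among the 37, so the WNT genes were near the share of named genes. The 9 were DKK1, LEF1, LGR6, FZD1 and FZD8 as higher, and WLS, FZD6, SFRP1 and LGR5 as lower. Of the 19 genes at or above the median probe set 13 had negative differences (median -0.10), and of the 18 below it 13 had positive ones (median 0.06). Over all probe sets the medians above and below that line were -0.003 and 0.01, and 49.4% and 54.6% of differences were positive. The standard deviation within a group ran from 0.02 to 0.33 without doxycycline and from 0.02 to 0.26 with it, with medians of 0.10 and 0.09.

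**Figure D3:**
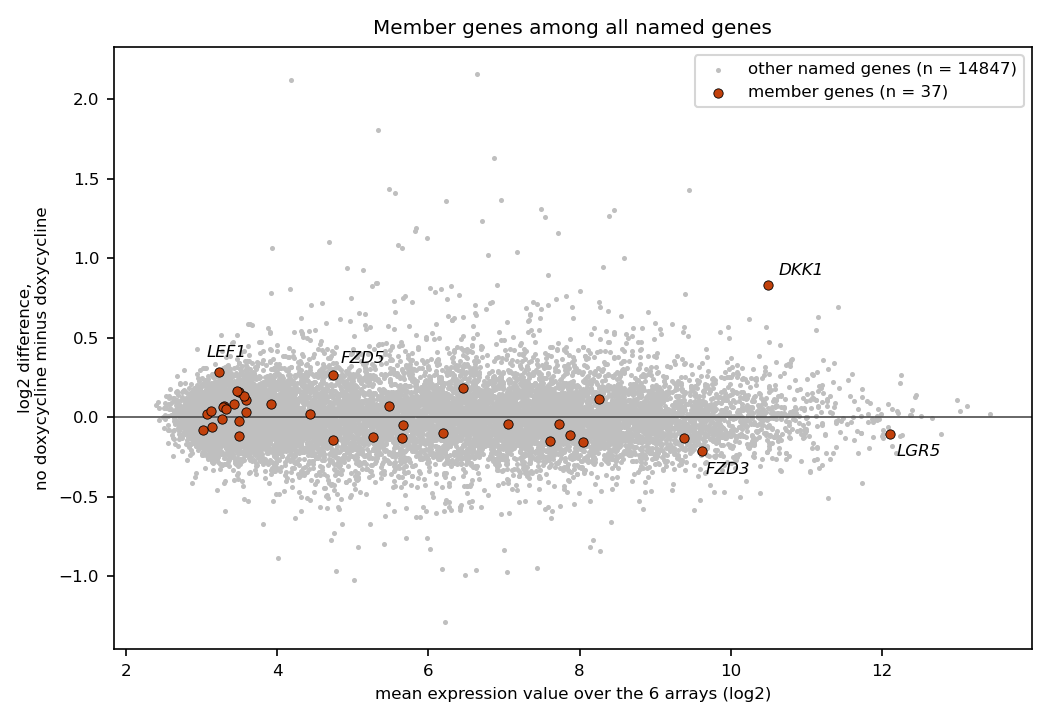
Mean log2 expression value over the 6 arrays (horizontal axis) against the log2 difference, no doxycycline minus doxycycline (vertical axis), for the 37 WNT genes (orange) and the other named genes (grey). DKK1 at 0.83 lies above the cloud of grey points at its brightness, and the other WNT genes lie within the cloud.

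Genes of the pathway outside this set were read from 5 lists, with 67 measured genes of 96 listed. JUN and PPARD passed as higher and 0 passed as lower, both from the list of beta-catenin target genes. The destruction complex and Dishevelled list (9 measured of 20) ranged from -0.22 to 0.07, with AMER1 and FBXW11 at -0.22 and -0.11 and GSK3A and APC2 at 0.07 and 0.04. The Dishevelled genes DVL1, DVL2 and DVL3 were not among those measured, so this range does not cover them. GSK3B, the kinase that marks beta-catenin for destruction, was at 10.90 ± 0.03 without and 10.89 ± 0.05 with doxycycline (SD, n = 3 each). Of 8 measured nuclear partners of 14, CREBBP and BCL9L were at 0.17 and 0.20, PYGO2 at -0.17, and PYGO1, which links beta-catenin to methylated histone H3 through BCL9, at -0.34 (SE 0.06, limma adjusted p = 0.108). The dimmer probe set of BCL9L was at 0.02. Of 12 measured genes of planar polarity and the alternative WNT receptors (18 listed), PRICKLE2 and PRICKLE1 were at 0.34 and 0.27, and RYK and PRICKLE3 at -0.18 and -0.15. The dimmer probe set of PRICKLE2 was at 0.03.

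Of 15 measured extracellular modulators (16 listed), FRZB and RSPO1 had the largest differences in either direction, and neither passed. FRZB, a secreted Frizzled-related protein that the symbols of the main set leave out, was at 8.61, 8.77 and 8.75 without doxycycline, against 9.08, 9.20 and 9.24 with it. Its groups do not overlap, and its log2 difference of -0.46 (SE 0.08) ran opposite to that of DKK1 (limma adjusted p = 0.0911). FRZB passed as lower with trend and robust moderation (limma adjusted p = 0.0425) and in the fit on gene means (limma adjusted p = 0.0199). RSPO1, an R-spondin ligand of LGR4, LGR5 and LGR6, was at 5.37, 4.85 and 4.62 without doxycycline, against 4.01, 4.21 and 4.47 with it. The RSPO1 groups do not overlap but spread widely (SD 0.38 without and 0.23 with doxycycline), and its difference of 0.72 did not pass (SE 0.21, limma adjusted p = 0.245). GPC3 and SOST were at 0.16 and -0.13.

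In the list of beta-catenin target genes outside the main set (23 measured of 28), 2 rose, 0 fell, 16 differences were positive and the median was 0.05. Over all probe sets 0.248% passed as higher, 0.0933% passed as lower and 52% of differences were positive. Among the 14884 named genes, read from the brightest probe set, 64 passed as higher and 20 as lower, and 49.4% of differences were positive. The groups did not overlap in 10 of the 23 genes, 43.5%, against 24.6% of named genes and 19.3% of all probe sets. The list was chosen with earlier results of these data known, so these shares describe it and are no independent test. JUN, a subunit of AP-1, was at 5.96, 6.33 and 6.41 without doxycycline, against 4.62, 4.25 and 4.40 with it (3.49-fold, limma adjusted p = 0.0140). PPARD, a nuclear receptor for fatty acids, was at 8.71, 8.63 and 8.77 without doxycycline, against 8.06, 7.90 and 8.15 with it (1.58-fold, SE 0.09 on the log2 scale, limma adjusted p = 0.0475). Both sets of groups lie well apart, but quantile normalization took PPARD to a limma adjusted p of 0.0535, and leaving out any 1 array ended its call (0.101 to 0.180). JUN lost its call in 5 of the 6 such fits. VEGFA, a growth factor for blood vessels, was at 8.02 ± 0.15 without and 7.13 ± 0.23 with doxycycline (SD, n = 3 each). Its log2 difference of 0.89 was larger than those of DKK1 and PPARD but did not pass (SE 0.13, limma adjusted p = 0.0634). ENC1, SNAI2 and BMP4, at 0.48, 0.40 and 0.59, did not pass either (limma adjusted p = 0.0605, 0.0853 and 0.146), although in these 3 genes and in VEGFA the groups do not overlap. On the negative side CD44 and FST were at -0.67 and -0.14, and neither passed. Other genes of the list hardly differed. CCND1, which averaged 9.49, was at 0.006, and L1CAM and TWIST1 were both at 0.02. MYC, SP5 and ASCL2, below the median probe set, were at 0.08, -0.005 and -0.02. SNAI2 and CD44 stand in the list of mesenchymal markers as well.

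The calls in the 5 lists moved with the fit. With trend and robust moderation 6 of the 67 genes passed, where 0.718% of all probe sets did: JUN, PPARD, SNAI2, VEGFA and ENC1 as higher and FRZB as lower. On gene means 9 passed, where 2.65% of 14884 genes did: JUN, PPARD, VEGFA, ENC1, SNAI2 and BMP4 as higher and FRZB, CD44 and PYGO1 as lower. The 3 that passed without dim probe sets were JUN, PPARD and ENC1, where 1.16% of the probe sets kept did. The cause of the JUN and PPARD differences was not tested. The list of targets was assembled from general knowledge of the pathway, not from this cell line, and with earlier results of these data known.

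**Figure D4:**
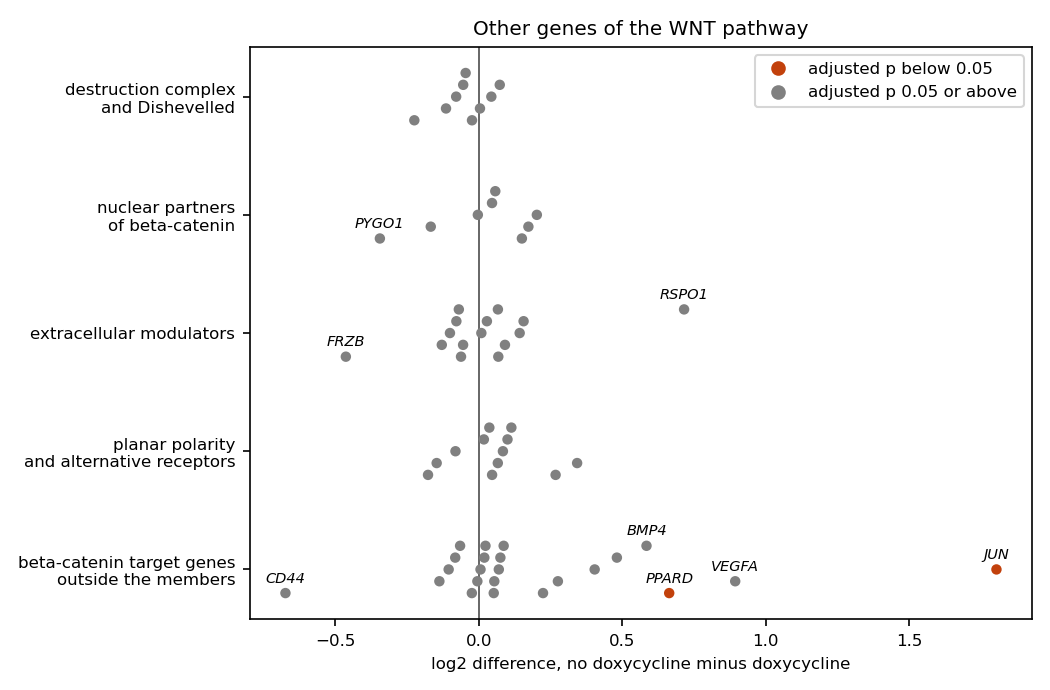
Log2 difference (no doxycycline minus doxycycline, horizontal axis) of each measured gene in 5 lists of the WNT pathway outside the main set, 1 point per gene, with heights within a list set only to separate points. JUN at 1.81 and PPARD at 0.66, in orange, passed the adjusted threshold, and the other 65 genes, in grey, did not.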

How the data were processed

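Total RNA was measured on 6 Affymetrix whole-transcript arrays, 1 RNA sample each, 3 per group. The deposited table holds log2 expression values made by the authors with Partek, per the submitters' processing notes. How the authors corrected, normalized and summarized probes, and on which build, is not given in the sources used here. Values ran from 2.12 to 14.3, a range that log2 values can have but that does not by itself fix the base. Fold values given here take base 2. Array medians lay between 3.94 and 3.96, so the arrays share a scale. No detection calls were used, and the number of arrays limits the precision. The design text calls the samples independent without naming separate cultures, so p-values measure the spread between these samples.

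GEO's platform annotation named 16098 of 53617 probe sets, and 37519 are unnamed here. The fit used limma 3.58.1 (lmFit, eBayes) under R 4.3.3 on every probe set, without covariates or filter, contrast no doxycycline minus doxycycline, after a test on simulated data. Genes named with values were every one past the threshold, the 10 of smallest p in each direction, the brightest of each role and the known feedback genes, 26 of 37. Differences of the other 11, from -0.08 to 0.13, appear beside them. In each further list, genes past the threshold and the 2 of smallest p per direction were named, and others were picked after their values were seen. The members and lists were chosen with earlier results of these data known. Alternatives were quantile normalization, trend with robust moderation, a filter on dim probe sets, gene means, a replicate block and leaving out each array.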

Additional observations from a re-analysis of the deposited data

How the results depend on the processing

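DKK1 passed, at a log2 difference of 0.83, in the fits of all 6 arrays with quantile normalization, with trend and robust moderation, without dim probe sets and on gene means (limma adjusted p = 0.00189 to 0.0187). No pairing by replicate number was visible in the values: deviations of same-numbered arrays correlated at -0.014 to 0.041, and 1 of 3 arrays without doxycycline correlated best with its own number. So few arrays cannot show whether same-numbered samples were grown or processed together. With the replicate block 0 probe sets, 0 WNT genes and 0 genes of the other lists passed (limma adjusted p of 0.148 for DKK1 and PPARD, 0.136 for JUN and 0.118 for KDM4C, whose difference stayed 1.27), in a fit with fewer degrees of freedom.

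The 183 probe sets past the threshold became 385 with trend and robust moderation and 311 without dim probe sets. Leaving out 1 array gave 0 to 15 probe sets, 0 WNT genes (0 in each of the 6 fits) and 0 to 1 genes of the other lists. WNT genes at an unadjusted p below 0.05 were then 1 to 5 and those with groups apart 12 to 16, and the median difference was -0.04 to 0.02. Groups of fewer arrays lie apart more easily for any gene. The shares over all probe sets in these fits were not counted, so these 2 counts say nothing particular about the WNT genes. KDM4C stayed at 1.24 to 1.29 but lost its call in 4 of the 6 fits (limma adjusted p = 0.0311 to 0.0696). Without dim probe sets 1 of 19 WNT genes had an unadjusted p below 0.05, 5 had groups apart (26.3%) and the median was -0.10, since the dim genes are left out. Of the 26809 probe sets kept, 26.1% had groups apart. In the fit on every probe set, 2633 of these 26809 had an unadjusted p below 0.05 as higher and 2428 as lower. The 2 genes of the other lists that passed became 1 with quantile normalization, 6 with trend and robust moderation and 9 on gene means, where 394 of 14884 features passed (2.65%). With 1 array left out the sign turned in 11 of the 37 WNT genes, none with a limma adjusted p under 0.505 in those fits: NKD1 (-0.069 to 0.042), AXIN1 (-0.085 to 0.15), RNF43 (-0.12 to 0.14), AXIN2 (-0.086 to 0.18), SFRP5 (-0.027 to 0.3), DKK2 (-0.042 to 0.12), DKK3 (-0.18 to 0.023), DKK4 (-0.043 to 0.07), DKKL1 (-0.01 to 0.11), FZD4 (-0.043 to 0.076) and KREMEN1 (-0.087 to 0.0043). The cause of the other changes was not tested.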
